A study of Homo sapiens with 9 samples.

Results

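The axon guidance ligands and receptors of MDA-MB-231 cells were taken as the genes of the semaphorin, plexin, neuropilin, Slit, Robo, ephrin, Eph, netrin, netrin-G and UNC5 families. They were chosen by gene symbol from the 18934 rows of the deposited table of log2 CPM. That gave 59 genes, 33 ligands and 26 receptors, of which 53 had enough counts to be tested and 6 did not. A further 11 symbols of these families stood only in the larger deposited count table of 60240 gene IDs, at no more than 0.274 CPM in any library, and were not counted as members, so a gene had to be in the smaller table to be one. A level in CPM is a count per 1e6 counts, with library sizes scaled by the trimmed mean of M values (TMM).

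The study measured polyadenylated RNA in MDA-MB-231, a human breast cancer cell line of the basal, triple negative kind, meaning that it lacks oestrogen receptor α, progesterone receptor and HER2 amplification. Oestrogen receptor β isoform 1 (ERβ1), the product of ESR2, is a hormone-activated transcription factor. All 9 libraries came from lentivirally transduced cells given doxycycline at 100 ng/ml for 3 days. The 3 control libraries came from cells with a doxycycline-inducible vector for GFP-luciferase alone. The 3 ERβ1 libraries came from cells whose inducible vector added ERβ1 to the GFP-luciferase. The 3 libraries of ERβ1 with CLI came from the latter cells after 24 h with CLI, a compound that the labels give by this short name with no dose. No control cells received CLI, so an action of CLI without ERβ1 cannot be told apart from one through it. The cells are transduced populations of 1 cell line, and nothing in the labels tells if the replicates grew apart. The p-values therefore measure the spread between these libraries, which may be technical.

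Axon guidance proteins steer growing nerve fibres by attraction and repulsion, and the same proteins guide migration, adhesion and vessel growth in epithelial tumours. Secreted class 3 semaphorins act through neuropilins paired with plexins, membrane-bound semaphorins mostly bind plexins directly, Slits bind Robo receptors, netrins bind DCC and UNC5 receptors, and ephrins and Eph receptors signal in both directions between touching cells. In breast epithelium several of them, among them SEMA3B, SLIT2 and EPHA2, have been studied as suppressors or drivers of invasion.

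Total estimated counts ran from 39902456 to 55387538 per library. ESR2 stood at 0.132 to 0.14 CPM in the control libraries, 115 to 118 CPM in the ERβ1 libraries and 82.2 to 87.7 CPM with CLI. ESR2 RNA thus matched the label of each library, though counts per gene show neither the isoform nor the protein. The basal and mesenchymal markers VIM, CD44, EGFR, AXL and CAV1 summed to 7276 to 7656 CPM in control cells, 6138 to 6315 CPM in ERβ1 cells and 5963 to 6336 CPM with CLI. In ERβ1 against control cells, VIM (-0.31 on the log2 scale, edgeR adjusted p = 0.000272), AXL (-0.25, 0.000308) and CAV1 (-0.28, 0.00386) were called lower. CD44 (-0.28, 0.0899) and EGFR (-0.10, 0.0531) were not called there. With CLI against control cells, VIM (-0.28, edgeR adjusted p = 0.00032), AXL (-0.29, 9.17e-05), CAV1 (-0.32, 0.00158) and CD44 (-0.41, 0.019) were called lower. EGFR was not called in that comparison either (-0.08, 0.0977). The 8 luminal markers summed to no more than 44.8 CPM in any library, with PGR, FOXA1 and TFF1 under 1 CPM everywhere. Of these, CDH1 (E-cadherin) was called higher in ERβ1 against control cells (3.42 on the log2 scale, adjusted p = 0.000772), from 0.0466 to 0.198 CPM in control libraries to 0.892 to 1.94 CPM in ERβ1 libraries and 2.46 to 2.62 CPM with CLI. GATA3 was not called in ERβ1 against control cells (-0.34, edgeR adjusted p = 0.0531). With CLI against control cells, CDH1 was called higher (4.35, 0.000132) and GATA3 lower (-0.47, 0.012). EPCAM and ERBB3 were not called in any comparison. ERBB3 reached 22.1 CPM in ERβ1 replicate 3 and at most 7.98 CPM in the other libraries. ESR1 (oestrogen receptor α) was at or under 0.765 CPM in 8 libraries and reached 5.98 CPM in replicate 2 of ERβ1 with CLI. Neural markers summed to 143 to 156 CPM in control cells, 115 to 118 CPM in ERβ1 cells and 115 to 123 CPM with CLI, nearly all of it MBP, which was called lower in ERβ1 against control cells (-0.36, 0.000447). The neuronal markers SNAP25 (1.71, 0.00115) and SYT1 (0.64, 0.0136) were called higher there, at no more than 1.67 and 4.10 CPM in any library, and STMN2 had no count. Endothelial markers summed to 11.3 to 12.8, 13.5 to 13.7 and 14.1 to 16.3 CPM in the 3 groups, most of it KDR, and CDH5 and CLDN5 were at or under 0.0880 CPM. PECAM1 (0.98, 0.0226) and TEK (1.72, 0.0162) were called higher in ERβ1 against control cells, at no more than 1.38 and 0.372 CPM in any library. The part of these markers in the results below was not tested. In bulk RNA, fewer cells of a type and less RNA per cell cannot be told apart.

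In ERβ1 cells against control cells, 5 of 7 class 3 semaphorin ligands, SEMA6B, 2 of 3 B-class ephrins and the receptors EPHB3 and UNC5B were called higher, while SEMA3D, SEMA5A, ROBO1, EPHB1 and the abundant receptor EPHA2 were called lower. Of the 53 tested members, 20 were called by edgeR at an adjusted p under 0.05, 14 higher and 6 lower, which is 37.7% beside 21.4% of all 17058 genes tested. By direction, the shares were 26.4% higher and 11.3% lower among the members, beside 10.7% higher and 10.7% lower among all genes. The members' median log2 fold change was 0.17, beside -0.000569 over all genes. Changes of at least 2-fold were called for 8 of the 53 members, 4 upward and 4 downward. Over all genes that was 626 of 17058, or 3.67%, with 464 upward and 162 downward. Of the 8 members, EPHB1 and UNC5B were under 1 CPM in every library. The 3 ERβ1 libraries all lay above or all below the 3 control libraries for 30 members, or 56.6%, beside 39.6% of all genes. The count of higher calls fell from 14 to 8 without control replicate 3, to 8 without ERβ1 replicate 1 and to 9 without ERβ1 replicate 3. Over all genes the higher calls fell from 1825 to 1452, 1439 and 1381 in the same settings.

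Adding CLI to ERβ1 cells moved few of these genes. The test called 3 members, SEMA3B upward and SEMA4D and SEMA7A downward, which is 5.66% beside 1.47% of all genes (1.04% higher and 0.428% lower). Non-overlapping groups were seen for 13 members, 24.5% beside 18.8% of all genes. Of the 23 receptors tested, edgeR called 0 in this comparison, with 2 higher and 2 lower at an unadjusted p under 0.05, while DESeq2 called 1 lower and limma called 0. Same-numbered ERβ1 libraries with and without CLI deviated together, and with the replicate number as a block the SEMA3B call held and the other 2 did not. Over all genes, 178 higher and 73 lower calls became 104 and 32 with the block in 9 libraries. Within the 6 libraries compared they became 60 and 6. The members' lower calls also fell from 2 to 0 without any 1 library except control replicate 3. Over all genes the 73 lower calls became 23 to 52 in those settings.

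ERβ1 cells with CLI against control cells gave 26 called members, 15 higher and 11 lower, which is 49.1% beside 26.5% of all genes (13.3% higher and 13.1% lower). Their groups did not overlap for 32 members, 60.4% beside 41.7% of all genes. This comparison shares its control libraries with the comparison of ERβ1 and control cells, so the likeness of their values is no separate result. The lower calls fell from 11 to 7 without replicate 2 of ERβ1 with CLI, and over all genes from 2238 to 1993.

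**Figure D1:**
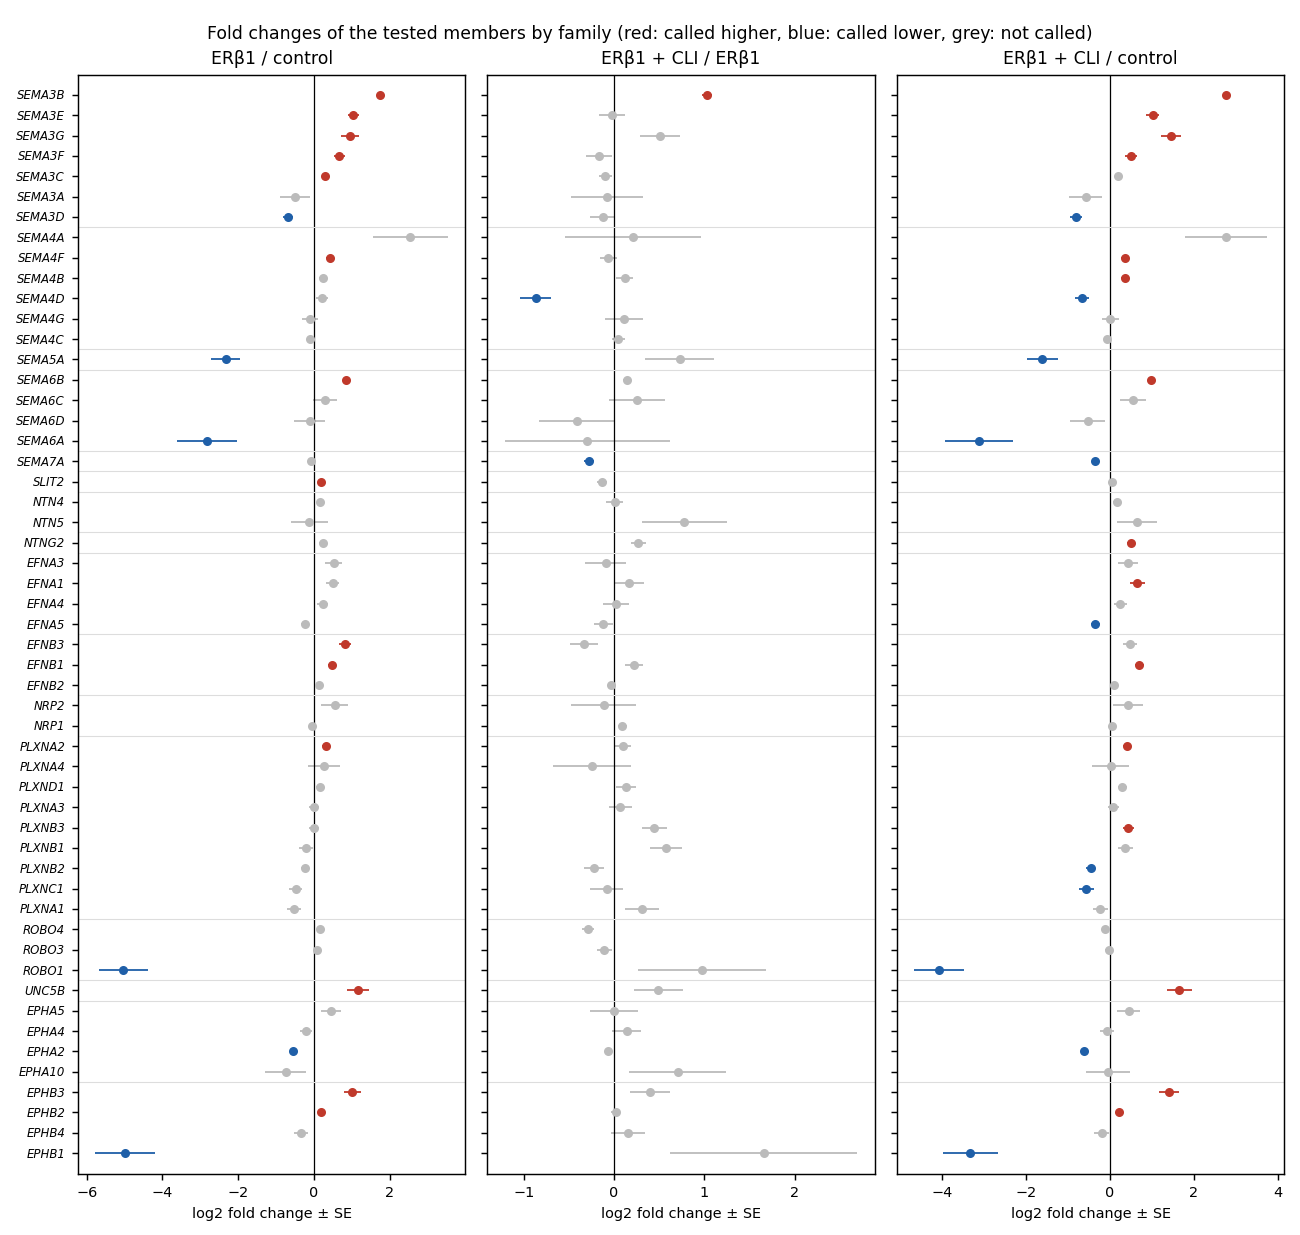
Log2 fold change (horizontal axis) of each of the 53 tested members, with lines of 1 SE, in ERβ1 against control cells (left), ERβ1 with CLI against ERβ1 cells (middle) and ERβ1 with CLI against control cells (right). Red points were called higher, blue points lower and grey points were not called; the 3 panels hold 20, 3 and 26 called members, and each panel has its own scale.

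Among the ligands, 13 of 30 tested were called in ERβ1 against control cells (10 higher and 3 lower), 43.3% beside 21.4% of all genes. With CLI against control cells 16 were called (10 higher and 6 lower), 53.3% beside 26.5%. The 7 class 3 semaphorins, all secreted, held 6 of the first 13, with 5 higher, 1 lower and a median log2 fold change of 0.66.

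SEMA3B (chr3:50267558-50277546, plus strand, GRCh38), a neuropilin ligand studied as a suppressor of tumour growth, had the smallest adjusted p of the members in all 3 comparisons. Its levels were 20.7, 19 and 19.6 CPM in the control libraries, 63.7, 64.9 and 70.9 CPM in the ERβ1 libraries, and 136, 133 and 138 CPM with CLI. The 3 groups formed 3 separate steps with no overlap, and the spread within each group was small beside the steps. The group means were 19.8 ± 0.875 CPM in control cells, 66.5 ± 3.85 CPM in ERβ1 cells and 136 ± 2.82 CPM with CLI (SD, n = 3 each). Its log2 fold change was 1.75 ± 0.05 (SE) in ERβ1 against control cells (edgeR adjusted p = 3.32e-07). CLI added a further 1.03 ± 0.05 over ERβ1 alone (edgeR adjusted p = 5.46e-05), although ESR2 itself read lower with CLI. For SEMA3B, ERβ1 with CLI against control cells gave 2.78 ± 0.05 (edgeR adjusted p = 9.8e-09).

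RefSeq (GRCh38.p14) lists several starts for SEMA3B, and gene-level counts do not show which one these cells use. Of its 5 promoter windows, each running from 250 bases before a start to 50 bases from it, 4 held the 5-base arm of the oestrogen response element, GGTCA or its reverse complement TGACC. One window is shown for each of the called ligands SEMA3B, SEMA3E and SEMA5A and for the receptor ROBO1, members called at 2-fold or more between ERβ1 and control cells with a window that holds the arm. EPHB3 and EPHB1, also called at 2-fold or more, had no arm in their windows, nor did the other windows of SEMA3E and ROBO1. The capitals mark the arm, and each sequence is given on its gene's strand, 5′ to 3′. The SEMA3B window is chr3:50267402-50267701 (plus strand), with the arm 114 bases before the start. The SEMA3E window is chr7:83649090-83649389 (minus strand), with the arm 238 bases before. The SEMA5A window is chr5:9546026-9546325 (minus strand), with the arm 183 bases before. The ROBO1 window is chr3:79019410-79019709 (minus strand), with the arm 125 bases before.
SEMA3B: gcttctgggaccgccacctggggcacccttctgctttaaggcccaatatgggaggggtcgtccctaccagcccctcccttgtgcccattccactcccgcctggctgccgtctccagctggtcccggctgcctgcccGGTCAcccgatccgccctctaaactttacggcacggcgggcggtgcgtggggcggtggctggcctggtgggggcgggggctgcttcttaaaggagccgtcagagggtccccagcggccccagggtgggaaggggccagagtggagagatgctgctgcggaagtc
SEMA3E: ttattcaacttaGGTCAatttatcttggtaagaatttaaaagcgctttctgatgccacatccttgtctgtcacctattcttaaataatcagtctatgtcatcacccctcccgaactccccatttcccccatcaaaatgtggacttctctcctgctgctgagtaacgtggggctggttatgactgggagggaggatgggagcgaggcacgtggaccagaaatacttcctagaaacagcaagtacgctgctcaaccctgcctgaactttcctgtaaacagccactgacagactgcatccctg
SEMA5A: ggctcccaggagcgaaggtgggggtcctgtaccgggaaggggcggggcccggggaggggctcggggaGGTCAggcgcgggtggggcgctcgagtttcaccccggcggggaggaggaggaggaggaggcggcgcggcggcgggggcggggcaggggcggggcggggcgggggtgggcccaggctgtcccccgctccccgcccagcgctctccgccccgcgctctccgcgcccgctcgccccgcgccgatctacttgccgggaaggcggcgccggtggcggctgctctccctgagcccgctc
ROBO1: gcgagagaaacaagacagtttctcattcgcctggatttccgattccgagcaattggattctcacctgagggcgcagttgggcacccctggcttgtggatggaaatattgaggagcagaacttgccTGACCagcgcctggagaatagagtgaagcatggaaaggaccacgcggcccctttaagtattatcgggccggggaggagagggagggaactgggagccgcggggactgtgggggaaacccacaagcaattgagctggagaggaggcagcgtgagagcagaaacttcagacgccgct

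The arm is common in promoters. It occurred in 31 of the 79 windows of the 51 members that had a RefSeq entry, 39.2%, beside 37.4% of all 35116 windows of the same length, searched on both strands. It was present in 10 of 20 windows of members called higher in ERβ1 against control cells, in 3 of 6 windows of members called lower, and in 18 of 45 windows of members not called. Several windows can belong to 1 gene. Counted by gene, these were 6 of 11 (54.5%), 3 of 5 (60%) and 16 of 29 (55.2%), beside 42.6% of all genes with a window. With CLI against control cells they were 6 of 12 genes called higher, 8 of 10 called lower and 11 of 23 not called. Whether these shares differ was not tested. The whole element, GGTCANNNTGACC, was in 0 of the 79 member windows and in 20 of all windows, 0.057%. A match says only that these letters are there, and a missing match says nothing about binding of the receptor elsewhere. EFNB3, EPHA10, NRP1, NTNG2, SEMA3A, SEMA6A, SEMA6B and UNC5B had no window in the table.

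SEMA3E (chr7:83363238-83649113, minus strand), which binds PLXND1 without a neuropilin, had 3.54, 3.13 and 3.45 CPM in the control libraries. Its levels were 6.87, 6.99 and 6.98 CPM in the ERβ1 libraries and 8.62, 5.82 and 6.12 CPM with CLI. All 6 libraries with the receptor lay above the 3 controls, while those with and without CLI overlapped. The log2 fold change was 1.04 ± 0.15 in ERβ1 against control cells (edgeR adjusted p = 0.00147), and -0.02 ± 0.15 on adding CLI (adjusted p = 0.976). With CLI against control cells it was 1.02 ± 0.15 (edgeR adjusted p = 0.0012).

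SEMA3G (chr3:52433053-52445085, minus strand), a neuropilin-2 ligand known from vascular endothelium, was scarce. It had 0.484, 0.77 and 0.559 CPM in the control libraries, 1.21, 1.3 and 0.968 CPM in the ERβ1 libraries and 1.81, 1.37 and 1.81 CPM with CLI. The groups did not overlap in any of the comparisons, but on adding CLI the test made no call (log2 fold change 0.51 ± 0.22, edgeR adjusted p = 0.382). The log2 fold change came to 0.94 ± 0.23 in ERβ1 against control cells (edgeR adjusted p = 0.0207) and 1.45 ± 0.23 in ERβ1 with CLI against control cells (adjusted p = 0.00193). The former call was lost without control replicate 1 (adjusted p = 0.0684), control replicate 3 (0.0632), ERβ1 replicate 1 (0.0567) or ERβ1 replicate 2 (0.0686).

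SEMA3F, a neuropilin-2 ligand that repels endothelial and tumour cells, had a log2 fold change of 0.66 (adjusted p = 0.0124 by edgeR) in ERβ1 against control cells. It was called at 0.50 with CLI against control cells (adjusted p = 0.0338), which control replicate 1 or 2, or replicate 1 or 2 with CLI, ended when left out (adjusted p of 0.109, 0.0832, 0.108 and 0.0549). SEMA3C, which acts through both neuropilins and is often described as promoting invasion, had 0.29 in ERβ1 against control cells (adjusted p = 0.0188), lost without ERβ1 replicate 1 (0.0602) or 3 (0.0506). SEMA3D, a neuropilin-1 ligand, was the one class 3 member called lower. It had 3.5, 3.31 and 2.87 CPM in control libraries, 2.04, 2.02 and 1.96 CPM in ERβ1 libraries and 1.9, 1.58 and 2.03 CPM with CLI, and its log2 fold change was -0.69 ± 0.14 in ERβ1 against control cells (edgeR adjusted p = 0.00812). With CLI against control cells SEMA3D was at -0.81 (edgeR adjusted p = 0.00267). SEMA3A, the prototype repellent, was not called (log2 fold change -0.50 in ERβ1 against control cells, adjusted p = 0.419). SEMA3D, SEMA3E and SEMA3A lie in 1 stretch of chromosome 7, with 503 kb between SEMA3A and SEMA3D and 307 kb between SEMA3A and SEMA3E, yet SEMA3E rose and SEMA3D fell.

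Per length of exon, SEMA3B took a growing share of the class 3 ligand RNA. The 7 genes summed to 14.2 ± 0.704 CPM per kb in control cells, 25.1 ± 0.331 in ERβ1 cells and 36.2 ± 0.413 with CLI (SD, n = 3 each). SEMA3B made up 24.2 ± 1.61% of that sum in control cells, 46.0 ± 2.11% in ERβ1 cells and 64.9 ± 1.52% with CLI. The share of SEMA3C went from 52.5 ± 1.82% to 36.5 ± 1.99% and 23.6 ± 1.38%, although its own level was 7.46 ± 0.62 CPM per kb in control cells, 9.14 ± 0.526 in ERβ1 cells and 8.54 ± 0.432 with CLI. Without SEMA3B the sums were 10.8 ± 0.724, 13.5 ± 0.393 and 12.7 ± 0.628 CPM per kb, so most of the increase was SEMA3B RNA.

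**Figure D2:**
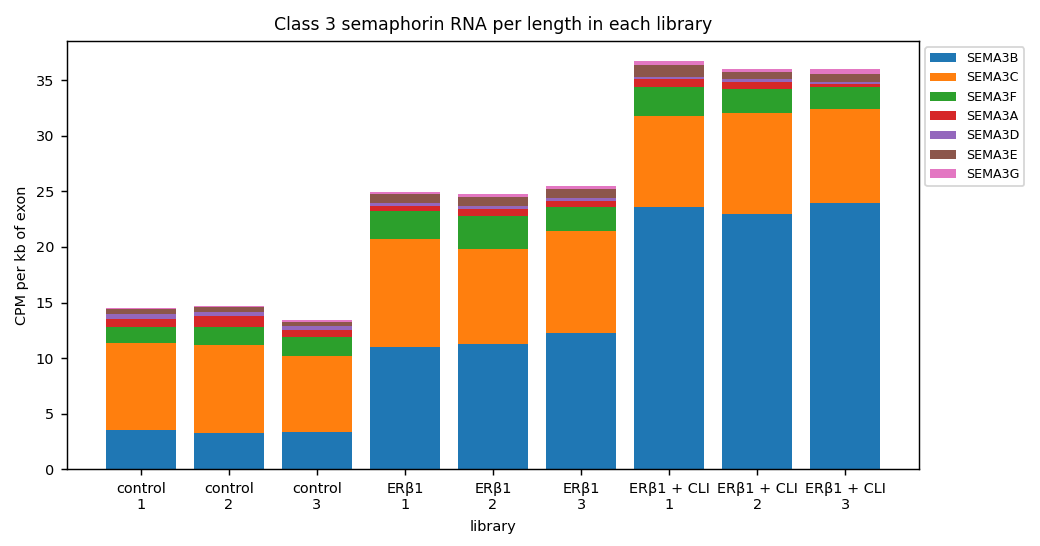
Stacked bars of the 7 class 3 semaphorins in each of the 9 libraries (horizontal axis), in CPM per kb of exon (vertical axis, from 0). The blue SEMA3B segment grows from 3.29 to 3.59 CPM per kb in control libraries to 11.0 to 12.3 in ERβ1 libraries and 23.0 to 24.0 with CLI.

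The membrane-bound semaphorins moved both ways. SEMA5A (chr5:9035026-9546075, minus strand), whose thrombospondin repeats set class 5 apart and which binds PLXNB3, had 9.62, 8.35 and 9.83 CPM in control libraries. It had 2.56, 1.36 and 1.61 CPM in ERβ1 libraries and 5.1, 1.99 and 2.05 CPM with CLI. All 6 libraries with ERβ1 were below the controls, and replicate 1 with CLI was the highest of the 6. Against control cells, ERβ1 cells gave -2.33 ± 0.38 on the log2 scale (adjusted p = 0.00288 by edgeR) and ERβ1 cells with CLI -1.61 ± 0.37 (0.0115), while CLI against ERβ1 alone gave 0.73 ± 0.38 (0.485), and 0.14 (0.893) without replicate 1 with CLI.

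SEMA6A (chr5:116443616-116574934, minus strand), which binds PLXNA2 and PLXNA4, was called lower in ERβ1 cells, with control replicate 3 far above the other controls. Its levels were 0.308, 0.56 and 2.61 CPM in control libraries, 0.137, 0.214 and 0.124 CPM in ERβ1 libraries and 0.209, 0.0977 and 0.0903 CPM with CLI. The log2 fold change in ERβ1 against control cells was -2.82 ± 0.79 (edgeR adjusted p = 0.0341), and -1.41 without control replicate 3 (adjusted p = 0.0991). The call was also lost without any 1 ERβ1 library, at adjusted p = 0.1, 0.0727 and 0.105 without replicates 1, 2 and 3. With CLI against control cells the log2 fold change was -3.12 ± 0.81 (adjusted p = 0.0212), a call lost without replicate 2 (0.0695) or replicate 3 (0.0747) of ERβ1 with CLI. Without control replicate 3 it was -1.70 (0.0492). On adding CLI to ERβ1 cells it was -0.30 ± 0.91 and not called (edgeR adjusted p = 0.938).

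SEMA6B, a ligand of PLXNA4, was among the abundant semaphorins and rose from 50.4 ± 2.75 to 90.7 ± 2.35 CPM in ERβ1 cells (0.85 on the log2 scale, adjusted p = 8.07e-06 by edgeR). It stood at 100 ± 3.18 CPM with CLI, where all 3 libraries lay above the 3 without CLI but the test made no call (adjusted p = 0.23). With CLI against control cells SEMA6B was at 0.99 on the log2 scale (adjusted p = 2.12e-06 by edgeR). SEMA4F, a class 4 transmembrane ligand, had a log2 fold change of 0.42 in ERβ1 against control cells (adjusted p = 0.0153), lost without control replicate 3 (0.0502), ERβ1 replicate 1 (0.0501) or ERβ1 replicate 2 (0.0524). SEMA4F with CLI against control cells was at 0.36 (0.0249), lost without control replicate 2 (0.0648) or 3 (0.0792) or replicate 1 (0.0558) or 2 (0.0723) with CLI. SEMA4B, of the same class, was called higher by 0.35 with CLI against control cells (0.022), lost without control replicate 2 (0.0734) or 3 (0.0673) or replicate 1 with CLI (0.0651).

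SEMA4D, the ligand of PLXNB1, had 38.1, 37.5 and 50 CPM in control libraries, 62.1, 42.7 and 40.4 CPM in ERβ1 libraries and 27.8, 25.6 and 26.2 CPM with CLI. The 3 libraries with CLI were below all 6 others. The log2 fold change on adding CLI was -0.87 ± 0.17 (edgeR adjusted p = 0.0461), and the call was lost with the replicate block (adjusted p = 0.0932 in all 9 libraries and 0.0883 within the 6). It was also lost without any 1 of the 6 libraries compared or control replicate 1 or 2 (adjusted p from 0.0599 to 0.161). SEMA7A, a lipid-anchored ligand of integrins and PLXNC1, had 94.7, 93.1 and 83.8 CPM in control libraries, 82.3, 87.7 and 89.6 CPM in ERβ1 libraries and 69.8, 72.1 and 72.1 CPM with CLI. Its libraries with CLI were also the lowest 3 of 9. Adding CLI gave -0.28 ± 0.05 on the log2 scale (adjusted p = 0.0447 by edgeR), a call lost with the block (0.106 in all 9 libraries and 0.104 within the 6). The same libraries each ended it when left out (adjusted p from 0.0529 to 0.141). Against control cells SEMA7A was lower by a log2 fold change of -0.34 (adjusted p = 0.00168) and SEMA4D by -0.66 (adjusted p = 0.0197), the latter lost without control replicate 3 or without replicate 2 or 3 of ERβ1 with CLI (adjusted p = 0.0692, 0.0605 and 0.0598). SEMA4A, SEMA4C, SEMA4G, SEMA6C and SEMA6D were not called in any comparison, and SEMA4A stayed at or under 0.446 CPM. With CLI against control cells, SEMA4A was called by DESeq2 (adjusted p = 0.0433) and by edgeR without replicate 2 with CLI (0.0362), and SEMA6C by edgeR without control replicate 3 (0.0159).

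Of the Slits, only SLIT2 was tested. It stood at 44.4 ± 2.88 CPM in control cells, 50.9 ± 0.49 CPM in ERβ1 cells and 46.2 ± 2.1 CPM with CLI. The log2 fold change in ERβ1 against control cells was 0.20 (adjusted p = 0.0337), lost without any 1 of these 6 libraries except control replicate 1 (adjusted p from 0.0653 to 0.0991), and with CLI it was not called against control cells (adjusted p = 0.492). The lipid-anchored netrin-G ligand NTNG2 went from 5.78 ± 0.126 CPM in control cells to 6.77 ± 0.216 and 8.15 ± 0.567 CPM, and was called with CLI against control cells (0.50 on the log2 scale, adjusted p = 0.00209 by edgeR). NTN4 and NTN5 were not called.

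The ephrin-B ligands span the membrane, whereas ephrin-A ligands are held by a lipid anchor. EFNB1 rose from 4.45 ± 0.235 to 6.23 ± 0.519 CPM in ERβ1 cells (0.48 on the log2 scale, adjusted p = 0.0112 by edgeR), and EFNB3 from 1.15 ± 0.13 to 2.02 ± 0.132 CPM (0.81, adjusted p = 0.00686). With CLI against control cells EFNB1 was at 0.70 (edgeR adjusted p = 0.00127). EFNB3 was not called there (0.48, 0.0523), except by limma (0.0499), with upper quartile scaling (0.0478) or with a filter of 1 CPM in 3 libraries (0.0429). In ERβ1 against control cells, the abundant EFNB2 had a log2 fold change of 0.12 and an edgeR adjusted p of 0.0553. That was 0.0424 without control replicate 1, 0.0419 by DESeq2, 0.0347 with upper quartile scaling and 0.0244 with a filter of 1 CPM in 3 libraries. For the 4 tested ephrin-A ligands edgeR called 0 in ERβ1 against control cells, with 2 at an unadjusted p under 0.05 and 0 called by DESeq2 or limma. With CLI against control cells, EFNA1 was called at a log2 fold change of 0.66 (adjusted p = 0.0222), lost without control replicate 2 (0.0556) or replicate 1 with CLI (0.0758). EFNA5 was called at -0.34 (0.04), lost without any 1 library except ERβ1 replicate 3 and replicate 3 with CLI (adjusted p from 0.0508 to 0.118). EFNA1, EFNA3 and EFNA4 lie side by side on chromosome 1. That the ephrin classes differ was not tested.

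Of the 23 receptors tested, 7 were called in ERβ1 against control cells (4 higher and 3 lower), 30.4% beside 21.4% of all genes, and 10 in ERβ1 with CLI against control cells (5 higher and 5 lower), 43.5% beside 26.5%. Of the receptors of semaphorins, edgeR called 1 of 9 plexins (11.1%, below the share of all genes) and 0 of 2 neuropilins in ERβ1 against control cells. For the neuropilins 0 reached an unadjusted p under 0.05, and DESeq2 and limma called 0.

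NRP1 (chr10:33177492-33336262, minus strand), the shared co-receptor of class 3 semaphorins and vascular endothelial growth factor, had 318, 337 and 360 CPM in control libraries. It had 322, 320 and 336 CPM in ERβ1 libraries and 342, 347 and 354 CPM with CLI. The control libraries spanned the whole range of the others. All 3 NRP1 values with CLI lay above the 3 of ERβ1 cells without CLI, but the test made no call there. Its log2 fold changes were -0.05 ± 0.05 in ERβ1 against control cells (edgeR adjusted p = 0.465), 0.09 ± 0.05 on adding CLI (0.45) and 0.04 ± 0.05 with CLI against control cells (0.576). NRP2, the receptor of SEMA3F and SEMA3G, was at 10.3 ± 3.02, 15 ± 1.82 and 13.9 ± 7.32 CPM in the 3 groups and was not called.

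PLXNB2 (chr22:50274979-50307627, minus strand), the receptor of SEMA4C and SEMA4G, had 265, 292 and 274 CPM in control libraries, 222, 229 and 258 CPM in ERβ1 libraries and 186, 178 and 241 CPM with CLI. Every library with ERβ1 lay below every control library. Its log2 fold change was -0.23 ± 0.11 in ERβ1 against control cells (edgeR adjusted p = 0.177) and -0.45 ± 0.11 with CLI against control cells (adjusted p = 0.015), the latter lost without control replicate 2 (0.0582) or replicate 1 with CLI (0.0584). On adding CLI it was -0.22 ± 0.11 and not called (edgeR adjusted p = 0.446). PLXNA2, a receptor of SEMA6A, was called at a log2 fold change of 0.31 in ERβ1 against control cells (adjusted p = 0.0346). That call was lost without control replicate 1 (0.0578) or 2 (0.0974), ERβ1 replicate 2 (0.089) or 3 (0.0504), or replicate 3 with CLI (0.0507). With CLI against control cells PLXNA2 was at 0.41 (0.00851). In the same comparison PLXNB3, the receptor of SEMA5A, was called at 0.44 (0.044), lost without any 1 library except control replicate 3 and replicate 3 with CLI (adjusted p from 0.0501 to 0.13). PLXNC1, the receptor of SEMA7A, was called at -0.57 (0.0462), lost without any 1 library except control replicate 3 and ERβ1 replicate 3 (adjusted p from 0.0556 to 0.161).

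PLXNA1, one of the plexins that pair with NRP1, had 234, 246 and 274 CPM in control libraries and 209, 115 and 197 CPM in ERβ1 libraries, where replicate 2 stood well below the others. It was not called (-0.53 on the log2 scale, adjusted p = 0.0792 by edgeR), but was called by DESeq2 (-0.53, 0.0156) and by edgeR without ERβ1 replicate 2 (-0.31, 0.0355). The same library was the lowest of its group for EPHB4, at 43.2 CPM beside 75.1 and 75.4 CPM. PLXNA3, PLXNA4, PLXNB1 and PLXND1, the receptor of SEMA3E, were not called, except PLXND1 with CLI against control cells by DESeq2 (0.30, adjusted p = 0.0317) and by edgeR without replicate 2 with CLI (0.39, 0.0266).

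ROBO1 (chr3:78597240-79767815, minus strand), the receptor through which SLIT2 repels, had the largest fitted fall of the tested members in ERβ1 against control cells, just past that of EPHB1. It had 10.3, 8.66 and 5.38 CPM in control libraries, 0.298, 0.321 and 0.0993 CPM in ERβ1 libraries and 0.278, 0.156 and 1.04 CPM with CLI. The highest library with ERβ1 was replicate 3 with CLI, still below every control. Against control cells, ERβ1 cells gave -5.03 ± 0.64 on the log2 scale (adjusted p = 0.000776 by edgeR) and ERβ1 cells with CLI -4.06 ± 0.59 (0.00119), or -5.23 without that replicate. CLI against ERβ1 alone gave 0.97 ± 0.71 (adjusted p = 0.645), and -0.20 without it. ROBO3, a divergent Robo known from commissural axons, and ROBO4, the Robo of endothelium, were not called and stayed near their control levels of 25.1 and 102 CPM, though DESeq2 called ROBO4 lower on adding CLI (-0.29, adjusted p = 0.00339). ROBO3 and ROBO4 lie 2.22 kb apart on chromosome 11.

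UNC5B, a netrin receptor known for signalling cell death without its ligand, rose from 0.237 ± 0.0577 to 0.535 ± 0.0747 CPM in ERβ1 cells (1.16 on the log2 scale, adjusted p = 0.0227 by edgeR) and stood at 0.752 ± 0.178 CPM with CLI (1.66 against control cells, adjusted p = 0.00315). The call in ERβ1 cells was lost without control replicate 1 (0.0767) or 3 (0.07) or ERβ1 replicate 1 (0.0501) or 3 (0.0734), and its level was under 1 CPM in every library.

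The Eph receptors, receptor tyrosine kinases that read ephrins, diverged within the B class. EPHB3 (chr3:184561784-184582409, plus strand) had 2.38, 2.96 and 2.33 CPM in control libraries, 4.78, 6.6 and 4.05 CPM in ERβ1 libraries and 8.02, 5.02 and 7.32 CPM with CLI. All 6 libraries with ERβ1 were above the controls. Its log2 fold change was 1.01 ± 0.23 in ERβ1 against control cells (edgeR adjusted p = 0.0142), lost without control replicate 1 (0.0515) or 3 (0.0501), and 1.41 ± 0.23 with CLI against control cells (0.00217). On adding CLI it was 0.39 ± 0.22 and not called (edgeR adjusted p = 0.526).

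EPHB1 (chr3:134597801-135260467, plus strand) went the other way from a low level. It had 0.418, 0.817 and 0.349 CPM in control libraries, 0, 0.0357 and 0 CPM in ERβ1 libraries and 0.0232, 0.0782 and 0.0452 CPM with CLI. Over the 3 libraries of a group this was 69 counts in control cells and 2 in ERβ1 cells, a ratio of 36.8 scaled for depth, with a 95% interval from 9.81 to 310 that covers counting error only (edgeR adjusted p = 0.00245). ERβ1 with CLI against control cells gave -3.33 on the log2 scale (edgeR adjusted p = 0.00551). In ERβ1 against control cells the fitted log2 fold change went from -4.98 to -7.55 without ERβ1 replicate 2, the one ERβ1 library with counts. EPHB2, which sorts cells at tissue boundaries, was called at 0.19 on the log2 scale (adjusted p = 0.0235). That call was lost without any 1 of the 6 libraries compared except ERβ1 replicate 2 (adjusted p from 0.0531 to 0.0695), and with CLI against control cells EPHB2 was at 0.21 (0.0131). EPHB4, the receptor of EFNB2, was not called.

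EPHA2 (chr1:16124337-16156087, minus strand), a receptor that is high in basal breast cancer and promotes migration when it signals without ligand, had 394, 395 and 400 CPM in control libraries. It had 276, 270 and 271 CPM in ERβ1 libraries and 260, 255 and 264 CPM with CLI. Every library with ERβ1 was far below the controls, and the libraries with CLI sat just under those without. Against control cells the log2 fold change was -0.54 ± 0.03 (edgeR adjusted p = 3.87e-06) in ERβ1 cells, with -0.07 ± 0.03 on adding CLI (0.302) and -0.61 ± 0.03 for ERβ1 with CLI against control cells (9.85e-07). The remaining A-class receptors EPHA4, EPHA5 and EPHA10 were not called.

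**Figure D3:**
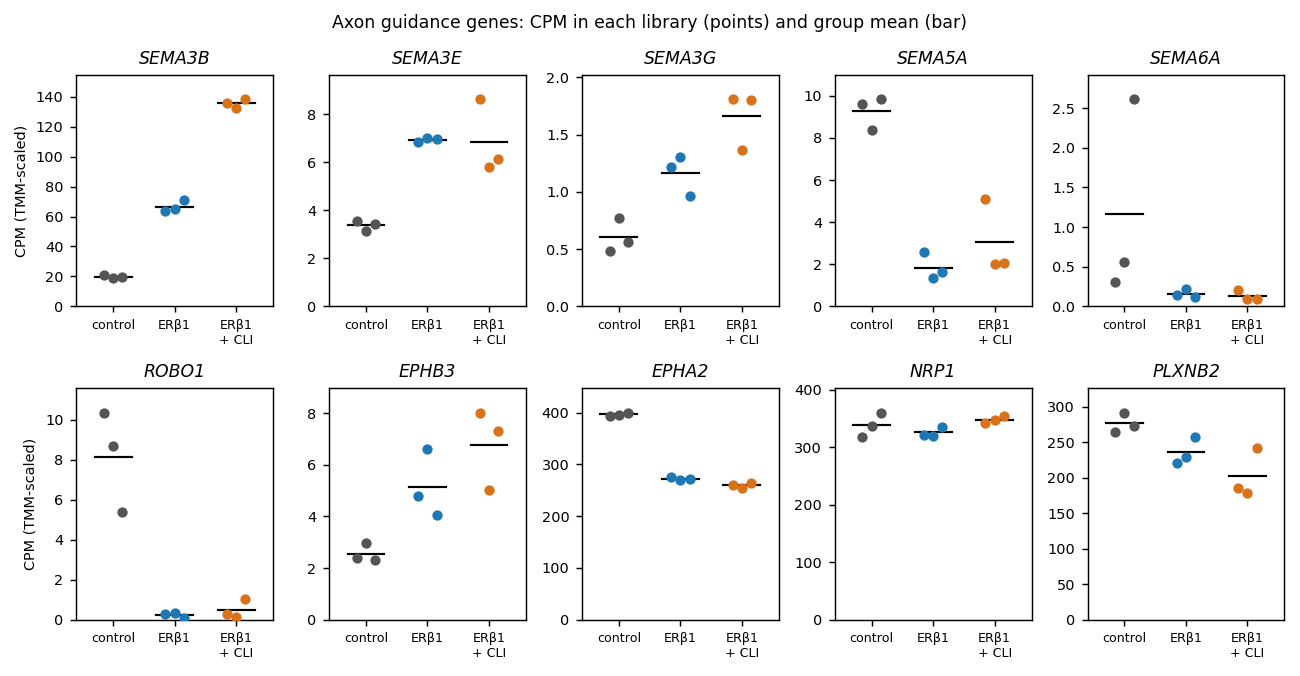
CPM (vertical axes, each from 0) of SEMA3B, SEMA3E, SEMA3G, SEMA5A, SEMA6A, ROBO1, EPHB3, EPHA2, NRP1 and PLXNB2 in the 3 libraries of each group, with a bar at the group mean. SEMA3B climbs in 2 steps, and EPHA2 and ROBO1 drop between control and ERβ1 cells. Control replicate 3 stands apart for SEMA6A at 2.61 CPM, and the NRP1 control libraries overlap both other groups.

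Per length of exon, EPHA2 was the highest member in each group, at 95.3 ± 0.722 CPM per kb in control cells, 65.5 ± 0.795 in ERβ1 cells and 62.4 ± 1.03 with CLI (SD, n = 3 each). PLXNB2 and NRP1 came next, at 38.1 ± 1.91 and 29.4 ± 1.86 CPM per kb in control cells. With CLI these 2 changed places at 27.8 ± 4.75 and 30.2 ± 0.504 CPM per kb, a difference within their spread. SEMA3B moved from rank 21 of the members in control cells, at 3.43 ± 0.152 CPM per kb, to rank 8 in ERβ1 cells at 11.5 ± 0.667 and rank 4 with CLI at 23.5 ± 0.489. SEMA6B moved from rank 8 in control cells, at 11.4 ± 0.624 CPM per kb, to rank 5 in ERβ1 cells at 20.6 ± 0.532. SEMA3B and SEMA6B, at 22.7 ± 0.72 CPM per kb with CLI, were neighbours in that order and lay within about 1 SD of each other.

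**Figure D4:**
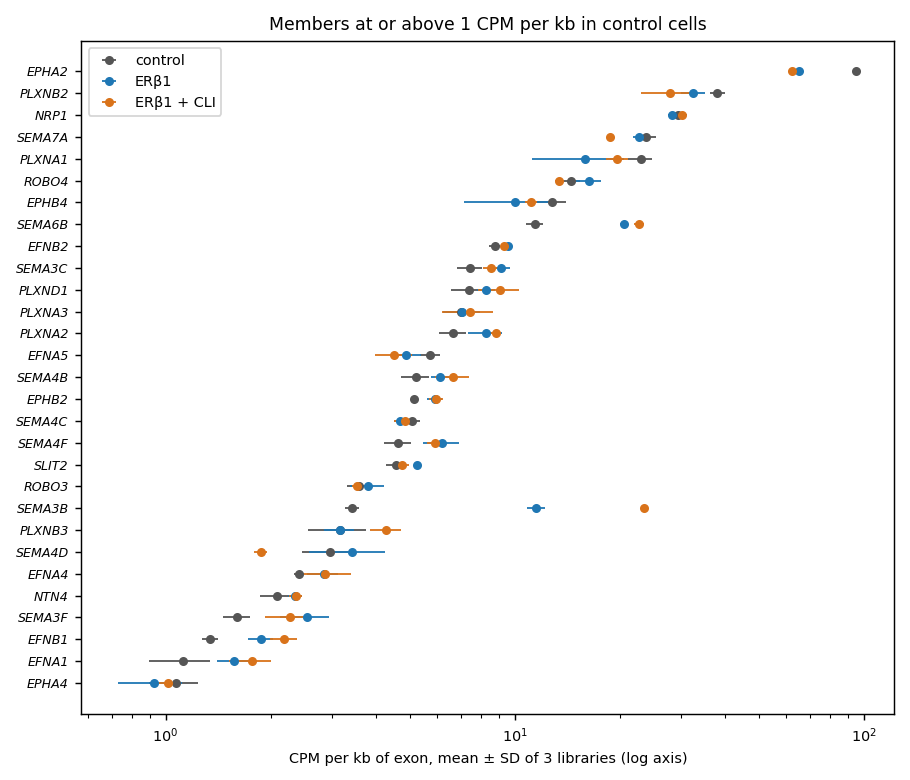
Level in CPM per kb of exon (horizontal log axis, mean and SD of 3 libraries) of the members at or above 1 CPM per kb in control cells, ordered by their control level, in control (grey), ERβ1 (blue) and ERβ1 with CLI (orange) cells. EPHA2 leads in all 3 groups, and SEMA3B moves from 3.43 to 23.5 CPM per kb.

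The genes around a member on its chromosome were read as background to its change. Within 5 Mb on either side of EPHA2, 89 other genes were tested in ERβ1 against control cells, with a median log2 fold change of -0.28, 36 called lower and 7 higher, 48.3% in all beside 21.4% of all genes. Around EPHB2, also on chromosome 1, 116 genes had a median of -0.30, with 58 called lower and 5 higher. The fall of EPHA2 by -0.54 thus came in a stretch where many genes were lower, while EPHB2 was higher against its neighbours. The stretches of these 2 genes overlap, and the part of the stretch in either result was not tested. SEMA3B had 158 tested neighbours with a median of 0.01 and 16.5% called, and SEMA3F, 78.5 kb from it, rose in ERβ1 cells as well. ROBO1 had 11 neighbours with a median of 0.06 and 1 called, or 9.09%. SEMA5A had 21 with a median of -0.08, of which 7 were called lower and 0 higher. That was 33.3% of the SEMA5A neighbours, beside 21.4% of all genes called and 10.7% called lower.

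**Figure D5:**
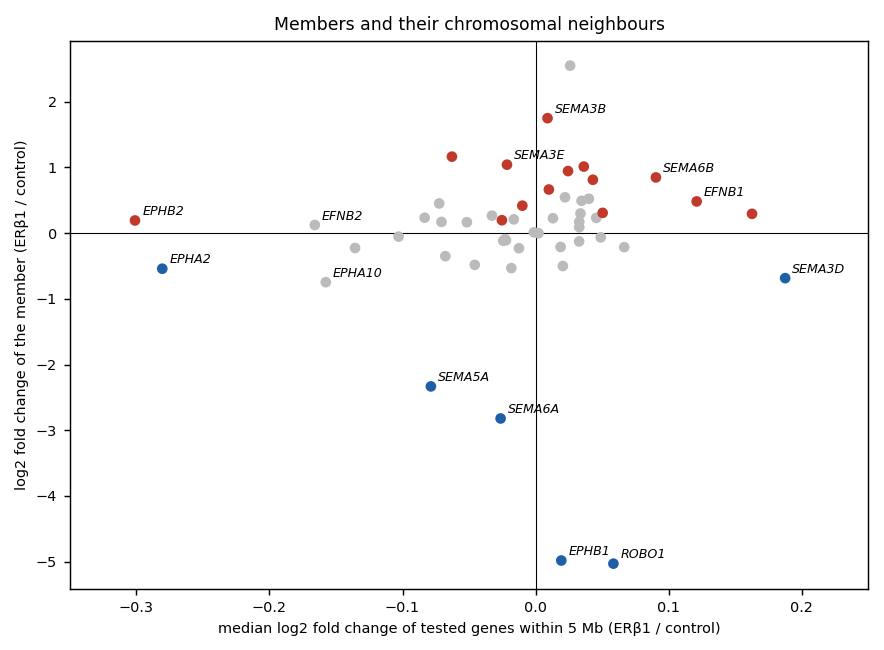
Log2 fold change of each tested member in ERβ1 against control cells (vertical axis) against the median log2 fold change of the tested genes within 5 Mb (horizontal axis), with members called higher in red, lower in blue and not called in grey. EPHA2 and EPHB2 sit at neighbour medians of -0.28 and -0.30 on the left, while SEMA3B, SEMA5A, SEMA6A, EPHB1 and ROBO1 sit between -0.08 and 0.06.

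Genes that carry these signals inside the cell were read from a list of 86 pathway partners, 76 of them tested. In ERβ1 against control cells 35 were called, 14 higher and 21 lower, 46.1% beside 21.4% of all genes. The median log2 fold change of the 76 was -0.07. Their median absolute log2 fold change was 0.176, close to the 0.171 over all genes. RASA1, a Ras inhibitor that binds activated EphB receptors, fell from 210 ± 10.4 to 128 ± 6.46 CPM (-0.71 on the log2 scale, adjusted p = 2.36e-05 by edgeR). RGMB, a ligand of the netrin receptor neogenin, fell from 141 ± 4.41 to 100.1 ± 2.1 CPM (-0.49, adjusted p = 4.28e-05). CDC42, the GTPase that forms filopodia, fell from 335 ± 5.77 to 264 ± 4.56 CPM (-0.34, adjusted p = 9.12e-05). CDC42 lies within 5 Mb of EPHB2, in the stretch of chromosome 1 whose median was -0.30. The part of that stretch in its fall was not tested. YES1, a Src-family kinase, fell from 126 ± 1.64 to 97.4 ± 2.01 CPM (-0.37, adjusted p = 0.000137).

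On adding CLI, edgeR called 2 partners higher and 0 lower, 2.63% beside 1.47% of all genes. At an unadjusted p under 0.05 there were 9 lower, limma called 0 lower and DESeq2 called 3 lower. GPC1, a heparan sulphate proteoglycan that binds Slits, rose in both steps. It had 54.2, 51.4 and 43.2 CPM in control libraries, 72.3, 82.4 and 72.7 CPM in ERβ1 libraries and 115, 117 and 118 CPM with CLI, with no overlap between groups. Its log2 fold change on adding CLI was 0.62 ± 0.08 (edgeR adjusted p = 0.00736), and 1.23 ± 0.08 with CLI against control cells (adjusted p = 1.5e-05). ABLIM3, an actin-binding protein, was called on adding CLI (0.23, adjusted p = 0.0169), a call lost with the replicate block (0.0529 in all 9 libraries and 0.126 within the 6) and without any 1 of the 6 libraries compared (adjusted p from 0.059 to 0.0797). With CLI against control cells 42 partners were called, 19 higher and 23 lower, 55.3% beside 26.5% of all genes. Among them were RGMB (-0.64) and CDC42 (-0.41). The partners' median absolute log2 fold change was 0.222 there, beside 0.187 over all genes.

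Of the 59 members, 6 were too scarce to test. Their highest levels in any library were 0.232 CPM for EFNA2, 0.326 CPM for EPHA6, 0.443 CPM for EPHB6, 0.234 CPM for ROBO2, 0.519 CPM for SLIT1 and 0.0687 CPM for SLIT3. The ligand netrin-1 (NTN1), outside the members, was at or under 0.0226 CPM.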

How the data were processed

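RNA was sequenced from 9 libraries, 3 in each of 3 groups. Per the labels' protocols, stranded mRNA libraries were read from 1 end for 101 cycles. The submitters' processing notes name bcl2fastq 2.20, FastQC, Trimmomatic 0.38, Salmon 1.2.1, R 4.0.2, edgeR 3.30.3 and the GRCh38 build. No source used here gives their settings. The authors deposited estimated counts per gene, with no normalization stated, and a table of log2 CPM whose name says that it was normalized by TMM. The number in the cell line label climbs by 1 per library from MDA-MB-231, whereas cell culture is described for MDA-MB-231 alone, so all were taken as that line. The deposited columns call the controls wild type.

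The estimated counts were rounded and fitted with edgeR 4.0.16 in R 4.3.3. The filterByExpr function, given the groups, retained 17058 genes. TMM scaling was used, and 1 quasi-likelihood fit of group means, with no replicate block, covered the 9 libraries. Tests were 2-sided with Benjamini-Hochberg adjustment over all genes of a comparison. An SE was obtained as the absolute log2 fold change over the root of the F statistic. The fit was also run on counts simulated with the spread estimated from these data. The simulated libraries were independent, so that run cannot speak to the replicate pairing. With 3 libraries a side, the smallest exact permutation p is 0.1, so no permutation p is given. DESeq2 1.42.0, limma 3.58.1 on the deposited log2 CPM, other scalings and filters, the replicate block and leaving out each library were the alternatives. No 2 libraries held the same values, and within groups the chi-square was 12.3 to 23.9 per gene, beyond sampling noise.

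The members and the lists were chosen with earlier results of these data known. One basal marker of the list is not reported here. Genes are named with all values where they were called at 2-fold or more and averaged 1 CPM or more in a group, or were among the 3 members with the highest mean CPM. Other called members are named with their fold, members not tested with their highest CPM, and up to 4 partners per comparison by adjusted p. Library values of SEMA3D, SEMA4D, SEMA7A, PLXNA1, EPHB1, EPHB4 and GPC1, and NTN1, were added after their values were seen. Same-numbered libraries counted as pairs where the deviations of genes averaging 2 CPM or more correlated above 0.1 in every pair. That held for ERβ1 with and without CLI (r = 0.13, 0.416 and 0.146 over 12625 genes), and at 1 CPM or more the values were 0.0995, 0.371 and 0.0992. It did not hold against control cells. Exon lengths and gene positions came from GENCODE release 29 (GRCh38), and promoter windows from RefSeq (GRCh38.p14). Plots used matplotlib 3.10.9 and pandas 2.3.3 under Python 3.11.15.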

Additional observations from a re-analysis of the deposited data

How the results depend on the processing

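Over 19 alternative settings, 71 results for named genes gave 1340 values, of which 1201 kept their direction and side of the threshold, 132 kept direction but fell short of it, 1 newly passed it (PLXNB2 in ERβ1 against control cells, -0.23, adjusted p = 0.0385 without replicate 3 of ERβ1 with CLI) and 6 reversed. The reversals were of uncalled values, each when 1 library was left out. NRP1 then ranged from -0.0903 to 0.00303 in ERβ1 against control cells and from -0.000999 to 0.0922 with CLI against control cells. On adding CLI, ROBO1 ranged from -0.20 to 1.41, SEMA3E from -0.22 to 0.0821 (0.05 without replicate 3 with CLI) and SEMA6A from -0.76 to 0.00036.

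In every setting that tested the gene, 10 of 20 called members remained called in ERβ1 against control cells. The same held for 1 of 3 (SEMA3B) on adding CLI and 16 of 26 with CLI against control cells. Among these, EPHB1 in both comparisons with control cells, and UNC5B with CLI against control cells, were tested in 18 of the 19 settings. Members called higher in ERβ1 against control cells numbered 14, 9 with the replicate block within the 6 libraries and 8 to 14 with 1 library left out. Members called lower on adding CLI numbered 2, 1 with upper quartile scaling, 0 with limma, with the 6 libraries alone and with either replicate block, and 0 to 2 with 1 library left out. Partners called higher on adding CLI numbered 2, 4 with DESeq2, 1 with either replicate block and 1 to 2 with 1 library left out, and partners called lower numbered 0 and 3 with DESeq2. Members called lower with CLI against control cells numbered 11, and 7 to 11 with 1 library left out. Over all genes, 178 higher and 73 lower calls on adding CLI became 366 and 275 with DESeq2, 104 and 32 with the block in 9 libraries, 60 and 6 with it in 6, 129 and 29 with the 6 libraries alone, and 91 to 151 higher and 23 to 60 lower with 1 library left out. The 1825 higher and 1820 lower calls of ERβ1 against control cells became 1115 and 1115 with the block in 6. With 1 library left out they became 1357 to 1866 higher and 1160 to 1783 lower. The 2238 lower calls with CLI against control cells then became 1597 to 2218. The cause was not tested. On adding CLI the block changed no member's call but those of SEMA4D and SEMA7A. EPHB1 in ERβ1 against control cells ranged from -7.55 to -4.52 with 1 library left out, the lower value without ERβ1 replicate 2, the one with counts. Against control cells the replicate numbers did not pair the samples, and the block is given here for completeness. Members under 1 CPM rest on few counts, and 3 libraries a group limit what can be called.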
